A study of Oryctolagus cuniculus with 9 samples.

Results

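The genes described here encode the enzymes of cholesterol and fatty acid synthesis and the proteins that regulate them. A list of 32 symbols was matched to the gene names of a single expression table of primary rabbit parathyroid cells. Of these, 24 were found among its 19511 loci, 17 of 22 sterol members and 7 of 10 fatty acid members, each as 1 row. The symbols MVD, IDI1, FDPS, CYP51A1, DHCR7, FASN and SCD named 0 rows, and ELOVL1 stood only in a joined name with MED8. The study compared 3 groups of 3 libraries. Control cells were untreated (WT in the labels, at day 0). H/R cells, which the labels call IRI, were held in hypoxia for 6 h and then reoxygenated for 6 h, which models ischaemia followed by reperfusion in a dish. GA+H/R cells were first given gallic acid, a phenolic acid found in plants, at 1200 µM for 24 h, and then the same treatment. The animals' strain and age, the medium and its serum are not given in the labels, nor whether each library is a culture or animal of its own, so p-values measure the spread between libraries only. Whether the H/R cells were cultured for as long as the GA+H/R cells is not stated. No day is given for H/R or GA+H/R cells, so time in culture and treatment cannot be told apart in comparisons with control. The question of the series is what gallic acid given beforehand changes in cells injured in this way.

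Cells make cholesterol from acetyl-CoA through mevalonate, the isoprenoid pyrophosphates, squalene and lanosterol, in a chain of enzymes of the cytosol, endoplasmic reticulum and peroxisome. Many of these genes share a switch. SREBP2, the product of SREBF2, is carried from the endoplasmic reticulum to the Golgi by SCAP when sterols are scarce, is cleaved there and activates sterol genes, while the INSIG proteins hold SCAP back when sterols are plentiful. SREBP1, from SREBF1, acts in the same way mainly on fatty acid genes. Several steps after squalene consume molecular oxygen, and so do fatty acid desaturases.

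Levels are given as FPKM (fragments per length of transcript and size of library). Without counts in the table, read depth is unknown. The median locus moved between the groups. Over 8448 loci at 1 FPKM or more in every library, the median log2 change of the deposited values was -1.48 for H/R minus control, -0.63 for GA+H/R minus H/R and -2.16 for GA+H/R minus control. Each library was therefore rescaled so that its median ratio to the mean library became 1 (divisors 1.77 to 1.96 in control, 0.6698 to 0.672 after H/R and 0.422 to 0.424 in GA+H/R). Values after this division are called scaled FPKM, and rose, fell and changed refer to them, relative to the median locus. On the deposited scale all 24 members were called lower after H/R than in control, as were 86% of all loci (4.18% were higher). The same held for GA+H/R minus control (90.1% lower and 4.1% higher), and for GA+H/R minus H/R 14 of the 24 were lower (64.3% lower and 1.69% higher). Log2 changes were fitted on log2(scaled FPKM + 1) with limma over every locus that passed the filter, and a change was called where its adjusted p was under 0.05. They understate changes of genes near 1 FPKM. In bulk RNA, fewer cells of a type and less RNA per cell cannot be told apart.

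The labelled cell type was checked against its markers. Parathyroid hormone (PTH) lay between 0 and 0.104 scaled FPKM in the 9 libraries, CASR and GCM2 named 0 rows, and 2 of the 8 parathyroid markers in the table passed the filter. Summed over the 9 of 12 macrophage markers in the table, scaled FPKM was 4.798 to 31.5 in control, 27.02 to 27.6 after H/R and 264 to 283 after GA+H/R. The sum of the 9 of 10 fibroblast markers in the table was 58765 to 98627, 29560.5 to 29682 and 15272 to 15568. The adipocyte markers ADIPOQ, FABP4, CIDEC and CIDEA stayed under 1 scaled FPKM in every library, and the sum of 7 adipocyte markers, mostly LEP, LPL and PPARG, was 229 to 337 in control, 299.6 to 319 after H/R and 309 to 316 in GA+H/R. Short and long transcripts moved apart between the groups. The median log2 change of 17 short housekeeping transcripts was 1.0 for H/R minus control and 0.32 for GA+H/R minus H/R, and that of 26 long ones was -0.50 and -0.36. The part of cell makeup and of transcript length in the results given next was not tested.

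Between control and H/R the sterol members differed in both directions, with no larger share called than among all loci. Among the 17, 5 rose, 3 fell and 9 missed the threshold, a share called of 47.1%, against 57.6% of all loci tested (29.2% higher and 28.4% lower). The median of the 17 was 0.09 on the log2 scale, beside 0.00 for all loci. All H/R libraries lay above all controls for 5 sterol members and below them for 4, beside 34.1% and 33% of all loci. Enzymes of the chain made up most of the rises, and both INSIG genes were among the falls.

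Early in the chain, HMGCS1 makes HMG-CoA, and MVK and PMVK phosphorylate mevalonate. HMGCS1 was at 6.78, 12.6 and 12.2 scaled FPKM in the controls, 10.2, 10.6 and 11.9 after H/R and 13.8, 14.8 and 14.97 in GA+H/R. The H/R libraries lay between the first control and the other two, with a log2 change of 0.09 ± 0.20 (SE, adjusted p = 0.731). MVK was at 2.58, 2.58 and 3.17 in control and 3.76, 4.02 and 5.53 in H/R. All H/R libraries lay above all controls, and MVK rose by 0.51 ± 0.14 on the log2 scale (adjusted p = 0.0126), a call that ended at equal library totals and after quantile normalization (adjusted p = 0.103 and 0.0711). PMVK, at 1.54 ± 0.391 in control and 1.83 ± 0.161 in H/R (SD, n = 3), lay near the filter and did not pass (log2 change 0.17 ± 0.13, limma adjusted p = 0.283).

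FDFT1, squalene synthase, commits isoprenoids to sterols and had the largest rise of the sterol members. It was at 76.05, 89.4 and 93.2 scaled FPKM in the controls and 133, 135 and 126 in H/R, with no overlap between the groups. Its log2 change was 0.61 ± 0.08 (adjusted p = 2.50e-04), and -0.84 on the deposited scale. SQLE, squalene epoxidase, the first oxygen-using step, was at 6.95, 14.6 and 13.4 in control and 10.97, 10.7 and 9.39 in H/R, and LSS, which closes the rings to lanosterol, at 20.9, 25.9 and 26.1 in control and 28.3, 25.997 and 27.2 after H/R. The H/R libraries of SQLE lay between control 1 and the other controls, and those of LSS overlapped the controls. Neither passed (log2 changes -0.10 ± 0.23 and 0.16 ± 0.12, adjusted p = 0.731 and 0.287).

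Downstream of lanosterol the members divided. MSMO1, which removes the C4 methyl groups with oxygen, was at 94.9, 196 and 169 scaled FPKM in the controls and 114, 112 and 118 in H/R, and did not pass (-0.35 ± 0.22, adjusted p = 0.1996). NSDHL, the decarboxylating partner in the same demethylation, was at 2.66, 4.61 and 4.67 in control and 6.59, 5.54 and 5.97 after H/R. It rose by 0.52 ± 0.19 (adjusted p = 0.0445), a call lost under 8 of 17 alternatives, among them without control 1 (0.32, adjusted p = 0.102). EBP, the isomerase that moves the sterol double bond, was at 12.6, 19.5 and 19.6 in control and 25.3, 24.8 and 23.01 after H/R, every H/R library above every control, and rose by 0.50 ± 0.17 (adjusted p = 0.0286, a call lost under 6 of 17 alternatives). SC5D, the sterol desaturase of a late step, was at 13.4, 20.04 and 16.002 in control and 11.2, 10.8 and 13.3 after H/R. The highest H/R library lay just under the lowest control, and it fell by 0.44 ± 0.14 (adjusted p = 0.0255), a call lost under 5 of 17 alternatives. HSD17B7, the ketosteroid reductase of the pathway, was near the filter at 1.399 ± 0.0521 in control and 1.13 ± 0.02202 in H/R (SD). All H/R libraries lay below all controls, with a log2 change of -0.17 ± 0.10 (adjusted p = 0.176). HSD17B7 passed under 3 of 16 alternatives, among them equal library totals and quantile normalization (-0.33 and -0.38, adjusted p = 0.0364 and 0.00584).

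Among the regulators, INSIG2 had the largest change of all 24 members. It was at 53.6, 86.7 and 89.1 scaled FPKM in the controls and 28.7, 33.7 and 28.6 in H/R, and it fell by 1.27 ± 0.21 on the log2 scale (adjusted p = 9.22e-04). No H/R library reached the lowest control. INSIG1, itself a target of SREBP2, was at 36.7, 68.99 and 70.2 in control and 36.3, 37.7 and 35.8 after H/R. It fell by 0.61 ± 0.22 (adjusted p = 0.0441), although control 1 lay within the range of the H/R libraries, and the call ended under 10 of 17 alternatives. SREBF2 was at 157, 178 and 181 in the controls and 210.4, 209 and 198 in H/R. It rose by 0.26 ± 0.07 (adjusted p = 0.00783), but stood at -0.028 at equal library totals and -1.19 on the deposited scale. STARD4, a carrier of cholesterol between membranes, was at 2.68, 6.07 and 5.403 in the controls, 3.31, 3.74 and 5.09 after H/R and 5.71, 4.89 and 5.604 in GA+H/R, with control 1 the lowest of all 9. SREBF1, SCAP and STARD4 did not pass, with log2 changes of 0.27, -0.14 and -0.14 (adjusted p = 0.332, 0.139 and 0.641). SCAP was called lower at equal library totals (-0.43, adjusted p = 0.00183), but not after quantile normalization (-0.083, adjusted p = 0.375).

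**Figure D1:**
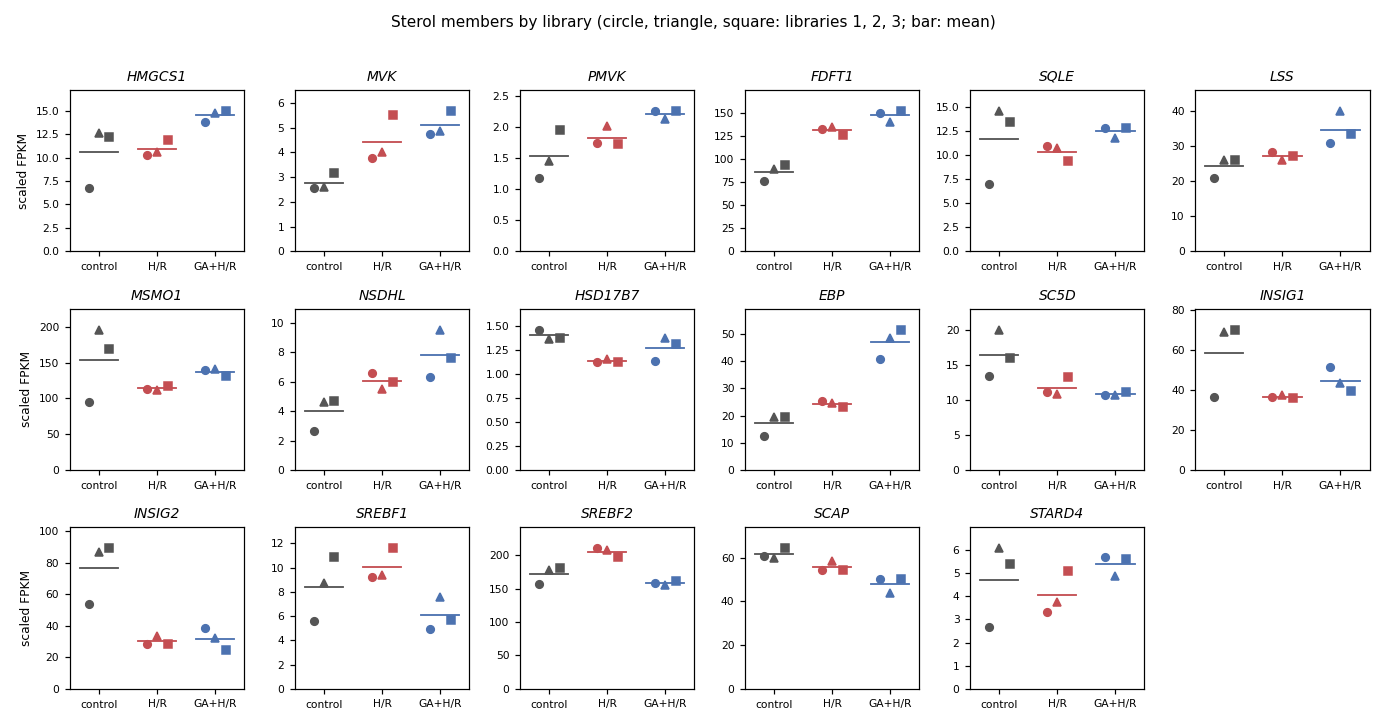
Scaled FPKM (y axis, from 0) of the 17 sterol members in each library of control, H/R and GA+H/R. Points are libraries (circle 1, triangle 2, square 3) and the bar is the group mean. FDFT1 and EBP lie above control in every H/R and GA+H/R library, INSIG2 lies below, and control 1 (grey circle) is the lowest control in 15 of 17 panels.

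Control 1 was low across the sterol members. It lay below both other controls in 15 of 17, which was so for 38.9% of all loci tested, and the median ratio of control 1 to the mean of controls 2 and 3 was 0.641 for sterol members and 1.02 for all loci. The ratio was 0.467 for STARD4, 0.496 for SQLE, 0.5197 for MSMO1, 0.527 for INSIG1 and 0.545 for HMGCS1, but 0.983 for SCAP and 1.07 for HSD17B7. Fatty acid members did not share this, with control 1 below both others in 2 of 7 (ACSL3 and ACLY) and a median ratio of 1.07. The 8 fibroblast markers tested were also below both other controls, with a median ratio of 0.584, as were 5 of 6 macrophage markers and 13 of 17 short housekeeping transcripts (median ratios 0.344 and 0.835). Their part in the low sterol values was not tested. The median coefficient of variation of sterol members was 25.4% in control, 7.91% after H/R and 8.297% in GA+H/R. Over all loci tested it was 11.5%, 8.32% and 11.2%.

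**Figure D2:**
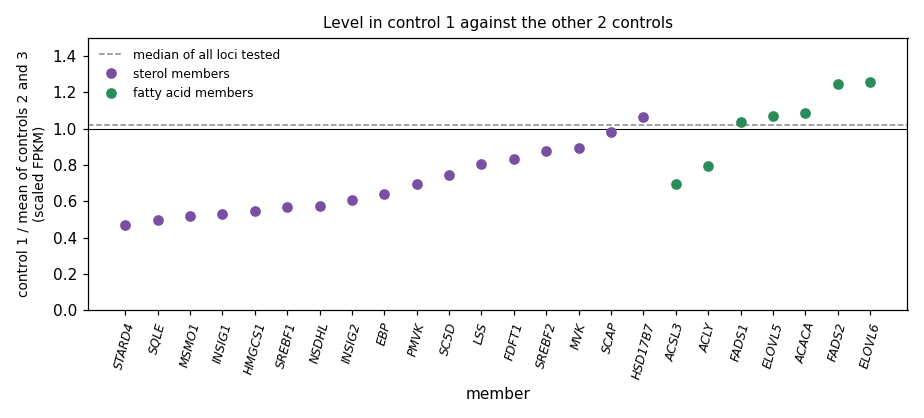
Scaled FPKM of control 1 divided by the mean of controls 2 and 3 (y axis) for each member (x axis), sterol members in purple and fatty acid members in green. The dashed line is the median of all loci tested, 1.02, and the sterol members run from 0.467 (STARD4) to 1.07 (HSD17B7).

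With control 1 left out, more sterol members were called lower after hypoxia and reoxygenation. Then 4 rose and 6 fell, with 59.4% of all loci called, 30.9% higher and 28.5% lower. The added falls were MSMO1 (-0.65, adjusted p = 7.67e-05), SQLE (-0.38, adjusted p = 0.0108) and STARD4 (-0.41, adjusted p = 0.0498), and INSIG1 was at -0.89 (adjusted p = 1.28e-04). FDFT1, EBP, MVK and SREBF2 rose in this fit too, by 0.53, 0.31, 0.47 and 0.21. The median of the 17 sterol members was then -0.13. With control 1 kept, the median was -0.18 at equal library totals and -0.06 after quantile normalization, so its sign depends on the scaling as well. With all controls MSMO1 was called lower at equal library totals too (-0.64, adjusted p = 0.0141), but not after quantile normalization (-0.17, adjusted p = 0.532). SQLE and STARD4 did not pass at equal library totals (adjusted p = 0.137 and 0.161). The falls added without control 1 are no separate evidence, since leaving out the lowest control of most sterol members raises their control mean. Controls 2 and 3 correlated at 0.997, against 0.985 and 0.983 with control 1 and 0.985 between GA+H/R libraries. The part of the spread that comes from the controls is then that of 2 very similar libraries. It is pooled with the spread of the H/R and GA+H/R libraries.

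Of the 7 fatty acid members, 1 rose and 3 fell after hypoxia and reoxygenation, and 3 did not pass, 57.1% called beside 57.6% of all loci tested. FADS2, the delta-6 desaturase that begins the synthesis of long polyunsaturated fatty acids, was at 100.03, 84.4 and 76.1 scaled FPKM in the controls and 172, 162 and 164 in H/R. Every H/R library lay above every control, and FADS2 rose by 0.94 ± 0.09 on the log2 scale (adjusted p = 3.73e-05, -0.51 on the deposited scale). FADS1, the delta-5 desaturase that works after it, lay at 17.8, 18.04 and 16.4 in control and 18.3, 17.6 and 18.5 after H/R. Its groups overlapped, with a log2 change of 0.05 ± 0.08 (adjusted p = 0.5897).

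ELOVL5, which elongates polyunsaturated fatty acids between the desaturation steps, was at 228, 223 and 205 in control and 154, 156 and 151 in H/R. It fell by 0.50 ± 0.06 (adjusted p = 1.64e-04), all H/R libraries being below all controls. ACSL3, which activates long-chain fatty acids as acyl-CoA and acts on lipid droplets, was at 4.303, 6.24 and 6.19 in control and 2.81, 2.98 and 2.65 after H/R, and fell by 0.77 ± 0.13 (adjusted p = 9.66e-04). ACACA, the carboxylase that makes malonyl-CoA, fell by 0.36 ± 0.09 (adjusted p = 0.00932), from 5.44, 4.896 and 5.13 to 3.44, 4.05 and 3.904. ACLY, which makes cytosolic acetyl-CoA from citrate, and ELOVL6, which elongates palmitate, did not pass (0.14 ± 0.11 and -0.05 ± 0.12, adjusted p = 0.303 and 0.734). Without control 1, 1 fatty acid member rose and 3 fell, and these were the same genes.

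**Figure D3:**
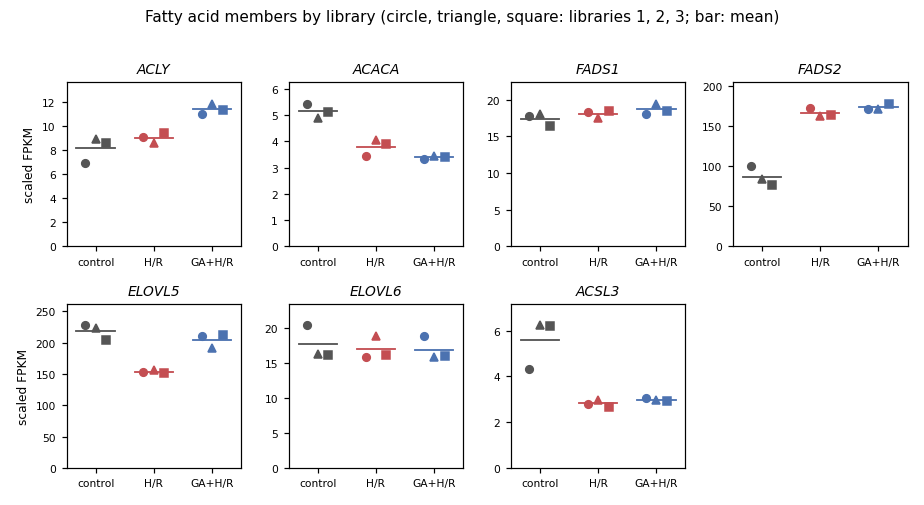
Scaled FPKM (y axis, from 0) of the 7 fatty acid members in each library of control, H/R and GA+H/R, drawn as for the sterol members. FADS2 is higher than control in every H/R and GA+H/R library, ACSL3 and ACACA are lower, and ELOVL5 is lower in every H/R library and in 1 GA+H/R library, the others lying within the controls.

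Gallic acid pretreatment changed few members beyond the spread between libraries when all controls were in the fit. Of 17 sterol members 1 rose, 1 fell and 15 did not pass for GA+H/R minus H/R, 11.8% called beside 33.9% of all loci tested (18.7% higher and 15.2% lower). This count rests on control 1, without which 6 rose and 3 fell. Their median was 0.19, beside 0.00 for all loci, and -0.34 on the deposited scale. EBP was at 25.3, 24.8 and 23.01 scaled FPKM after H/R and 40.8, 48.5 and 51.5 in GA+H/R, with no overlap. It rose by 0.91 ± 0.17 on the log2 scale (adjusted p = 0.00344), and it was the single sterol member with a positive change on the deposited scale (0.26, adjusted p = 0.143). SREBF2 was at 210.4, 209 and 198 after H/R and 158, 155 and 161 in GA+H/R. It fell by 0.38 ± 0.07 (adjusted p = 0.00263), and its GA+H/R libraries overlapped the lower end of the controls.

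SREBF1 and SCAP had negative values too, and both INSIG genes positive ones, none of which passed. SREBF1 was at 9.19, 9.36 and 11.6 after H/R and 4.97, 7.603 and 5.65 in GA+H/R, all of the latter lower. Its log2 change of -0.65 ± 0.22 missed the threshold (adjusted p = 0.0518). It passed under 9 of 17 alternatives, equal library totals among them (adjusted p = 0.0329). SCAP was at 54.5, 58.5 and 54.2 after H/R and 50.1, 44.01 and 50.1 in GA+H/R, again without overlap (-0.21 ± 0.08, adjusted p = 0.0603), and passed under 5 of 17 alternatives. The long housekeeping transcripts, too, had a negative median (-0.36), with 16 of 26 lower and 0 higher, beside 15.2% and 18.7% of all loci. The part of transcript length in the values of SREBF1 and SCAP was not tested. INSIG2 and INSIG1 were at 0.044 ± 0.21 and 0.28 ± 0.22 (adjusted p = 0.893 and 0.373).

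Of the 11 enzymes of the chain, all but SC5D had positive values, and only EBP passed. All GA+H/R libraries lay above all H/R libraries for 8 of 17 sterol members and below them for 3, beside 27.4% and 24.5% of all loci tested. LSS was at 28.3, 25.997 and 27.2 after H/R and 30.8, 40.02 and 33.4 in GA+H/R (0.34 ± 0.12, adjusted p = 0.0601). MSMO1 was at 114, 112 and 118 after H/R and 139.8, 141 and 131 in GA+H/R (0.26 ± 0.22, adjusted p = 0.395), and HMGCS1 had a log2 change of 0.38 ± 0.20 (adjusted p = 0.167). Since limma estimates 1 spread per locus from all 9 libraries, the wide controls bear on this comparison too. Without control 1, 6 sterol members were called higher (EBP, FDFT1, HMGCS1, INSIG1, LSS and MSMO1) and 3 lower (SCAP, SREBF1 and SREBF2), beside 22.8% and 20.2% of all loci (43% in either direction). The log2 changes were then 0.37 for HMGCS1, 0.33 for LSS, 0.25 for MSMO1, -0.65 for SREBF1 and -0.22 for SCAP (adjusted p = 0.00903, 0.02898, 0.0114, 0.0125 and 0.0409). With only the 2 groups compared in the fit, EBP, HMGCS1 and MSMO1 were higher and SREBF1, SREBF2 and SCAP lower. On the deposited scale 7 sterol members were called lower.

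Among the fatty acid members, ELOVL5 rose with gallic acid and 0 fell, 14.3% called beside 33.9% of all loci. At unadjusted p under 0.05, 0 were lower by limma. ELOVL5 was at 154, 156 and 151 scaled FPKM after H/R and 211, 191 and 212 in GA+H/R, and rose by 0.41 ± 0.06 (adjusted p = 0.00153), against -0.25 on the deposited scale. One of its GA+H/R libraries lay under all controls and the others within them. ACLY was at 9.13, 8.57 and 9.43 after H/R and 10.99, 11.9 and 11.3 in GA+H/R, all GA+H/R libraries being higher, and missed the threshold (0.30 ± 0.11, adjusted p = 0.0549, and 0.0187 without control 1). FADS2, FADS1, ELOVL6 and ACSL3 had log2 changes between -0.0018 and 0.06, and ACACA one of -0.12 (adjusted p = 0.343).

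Gallic acid treated injured cells also differed from untreated control, in a comparison that shares its libraries with the others. Of 17 sterol members 6 were higher and 3 lower in GA+H/R than in control, 52.9% called beside 69.2% of all loci tested (33.7% higher and 35.5% lower). All GA+H/R libraries lay above all controls for 7 of them and below for 3, beside 35% and 36.5% of all loci. EBP had the largest rise among the members, 1.41 ± 0.17 (adjusted p = 6.27e-05), with 12.6, 19.5 and 19.6 scaled FPKM in the controls. NSDHL rose by 0.84 ± 0.19 (adjusted p = 0.00399), reaching 6.35, 9.53 and 7.64, and FDFT1 by 0.77 ± 0.08 (adjusted p = 3.24e-05), reaching 149, 140.4 and 152. MVK, LSS and PMVK rose by 0.69, 0.49 and 0.35. LSS lost its call at equal library totals, and PMVK under 9 of 16 alternatives, the fit without control 1 among them.

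INSIG2 fell by 1.23 ± 0.21 (adjusted p = 7.62e-04), to 38.5, 31.98 and 24.7 scaled FPKM, which overlapped H/R. SC5D and SCAP fell by 0.54 and 0.35 (adjusted p = 0.00757 and 0.00259). ELOVL5 was at -0.09 ± 0.06 (adjusted p = 0.216), and lower at equal library totals (-0.47, adjusted p = 8.25e-04). SREBF2 itself was at -0.12 ± 0.07 (adjusted p = 0.142). Without control 1, 5 sterol members rose and 7 fell, beside 34.7% and 35% of all loci (69.7% in either direction). The added falls were INSIG1 (-0.62), SREBF1 (-0.60), MSMO1 (-0.40) and SREBF2 (-0.17). With control 1 kept, these were also called lower at equal library totals (-0.70, -0.70, -0.47 and -0.49, adjusted p = 0.00788, 0.0136, 0.0459 and 1.04e-04). After quantile normalization none of them passed (adjusted p = 0.201, 0.0506, 0.909 and 0.910). Of the fatty acid members, FADS2 and ACLY rose by 1.0 and 0.44, and ACSL3 and ACACA fell by 0.71 and 0.48 (adjusted p = 1.35e-05, 0.00503, 0.00109 and 0.00141). ACLY lost its call at equal totals and after quantile normalization (adjusted p = 0.425 and 0.05899).

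**Figure D4:**
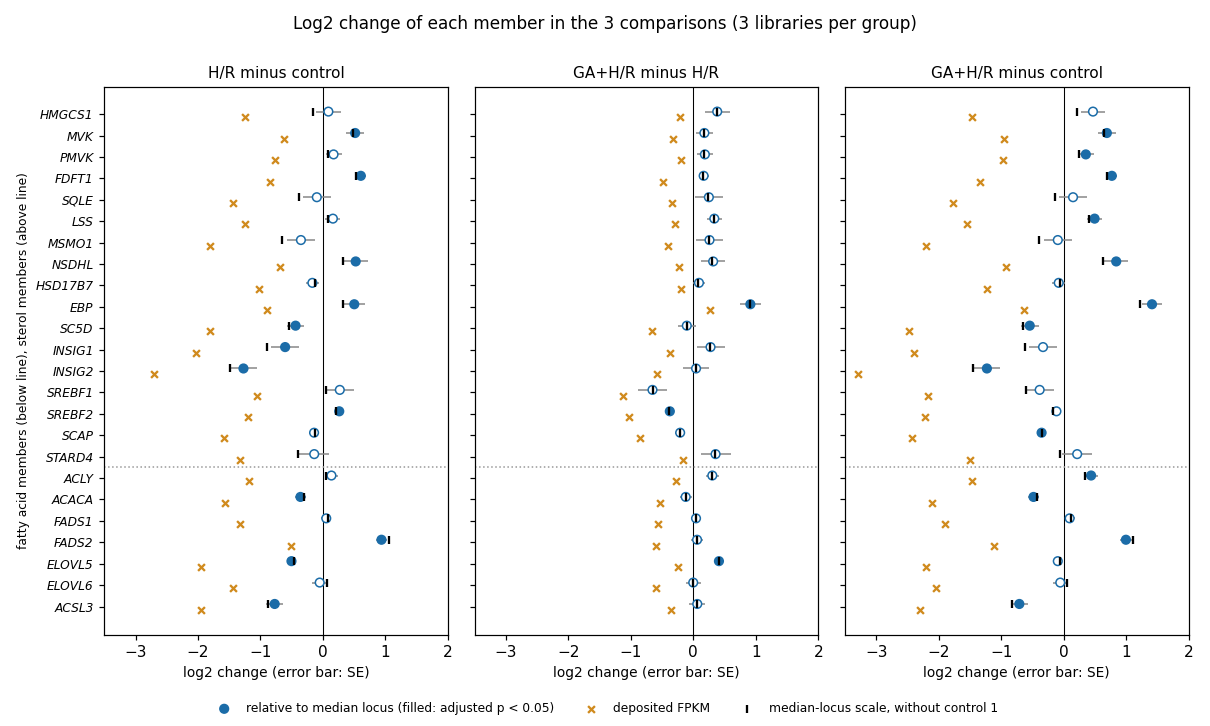
Log2 change (x axis) of each of the 24 members (y axis) in the 3 comparisons, 3 libraries per group. Circles are changes relative to the median locus with their SE, filled where the adjusted p was under 0.05, bars are the same fit without control 1, and crosses are the deposited scale. INSIG2 (-1.27) and FADS2 (0.94) mark the ends of the left panel, EBP (0.91) stands out in the middle one, and every cross lies below 0 except that of EBP in the middle panel.

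Some enzymes whose symbols named 0 rows stood in the table under locus numbers with a description. These loci are not members, and were chosen from their descriptions after the table was read. The locus described as lanosterol 14-alpha demethylase, the enzyme encoded by CYP51A1 (LOC100355623), was at 63.8, 97.4 and 94.4 scaled FPKM in control, 66.8, 66.9 and 54.7 after H/R and 85.4, 71.5 and 71.9 in GA+H/R. As with MSMO1, control 1 was the lowest control, and the locus did not pass in either step (-0.41 ± 0.16 and 0.28 ± 0.16, adjusted p = 0.0561 and 0.223). Acyl-CoA desaturase, which puts the first double bond into saturated fatty acids, was the description of LOC100357419;LOC100346561;LOC100346306, a joined locus at 1438, 1763 and 1827 scaled FPKM in the controls. Its H/R libraries were at 1402, 1399.9 and 1409.6, below all controls, and its GA+H/R libraries at 1674, 1658 and 1671. It fell by 0.25 in H/R (adjusted p = 0.0264) and rose by 0.25 in GA+H/R (adjusted p = 0.0423), relative to the median locus. A second desaturase locus, LOC100346046, fell by 0.35 in H/R (adjusted p = 0.0102) and was at 0.06 with gallic acid (adjusted p = 0.668). Near-identical copies can share fragments, so the split between these loci is uncertain. LOC100343510, described as isopentenyl-diphosphate isomerase, was at 0.00 and 0.18 and did not pass. The joined locus MED8;ELOVL1, whose value cannot be divided between its genes, was at 0.20 and 0.11 (adjusted p = 0.133 and 0.461).

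Other genes of lipid metabolism were read from lists, whose counts stand beside 29.2% of all loci called higher and 28.4% lower in H/R against control, and 18.7% and 15.2% with gallic acid. Of 14 tested genes of sterol synthesis and regulation outside the members, 2 rose and 8 fell in H/R against control, with a median of -0.44, and 2 rose and 3 fell with gallic acid, with a median of -0.07. ACAT2, the thiolase that feeds HMGCS1, rose by 1.30 ± 0.16 in H/R and by 0.55 ± 0.16 with gallic acid (adjusted p = 1.63e-04 and 0.0288), from 15.6, 26.6 and 23.3 scaled FPKM in the controls to 79.1, 77.9 and 81.7 in GA+H/R. On the deposited scale it was at -0.12 and -0.10.

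Genes of sterol uptake, efflux and storage divided, with 4 of 16 rising and 6 falling in H/R, and 4 rising and 3 falling with gallic acid (medians -0.025 and 0.08). ABCA1, which exports cholesterol to apolipoproteins, was at 6.603, 5.74 and 6.599 scaled FPKM in control, 2.54, 2.55 and 3.25 after H/R and 6.596, 5.77 and 6.29 in GA+H/R. The H/R libraries lay below both other groups, which overlapped. ABCA1 fell by 0.95 ± 0.11 (adjusted p = 9.88e-05) and rose by 0.94 ± 0.11 (adjusted p = 4.04e-04), and the rise was 0.34 on the deposited scale. The macrophage marker MRC1 was at 0.789, 23.5 and 26.3 in control, 16.7, 15.8 and 16.7 after H/R and 203, 213 and 228 in GA+H/R. Its part in the value of ABCA1 was not tested. SOAT1, which esterifies cholesterol for storage, fell by 0.97 in H/R (adjusted p = 3.08e-06) and was at 0.022 with gallic acid (adjusted p = 0.817). APOE did not pass in either step (0.37 and 0.23), and NPC1 lay under the filter.

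In the remaining lipid lists, 3 of 18 other fatty acid synthesis genes rose and 4 fell in H/R (median -0.16), and 2 rose and 2 fell with gallic acid (median -0.14). HSD17B12, the ketoacyl-CoA reductase of fatty acid elongation, fell by 0.64 in H/R (adjusted p = 2.05e-05), and ACSS2, which makes acetyl-CoA from acetate, rose by 0.42 with gallic acid (adjusted p = 0.0474). Malic enzyme ME1, a source of NADPH, fell by 0.55 in H/R (adjusted p = 0.0346), although control 1 overlapped the H/R libraries. The citrate carrier SLC25A1 rose by 0.46 in H/R (adjusted p = 0.008601), at levels near 1 scaled FPKM. Of 20 genes of fatty acid oxidation, 10 rose and 3 fell in H/R (29.2% and 28.4% of all loci) and 9 rose and 1 fell with gallic acid (18.7% and 15.2%), with medians of 0.30 and 0.30 that were -1.06 and -0.28 on the deposited scale. ACADM, the medium-chain acyl-CoA dehydrogenase, rose by 0.45 with gallic acid (adjusted p = 0.0304). Of 10 genes of glycerolipid synthesis and lipid droplets, 3 rose and 4 fell in H/R and 1 rose and 1 fell with gallic acid. LPIN1, a phosphatidate phosphatase, did not pass in either step (-0.14 and -0.15), and DGAT1 and TECR lay under the filter.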

How the data were processed

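RNA of 9 libraries, 3 a group, was sequenced after preparation with a TruePrep kit, per the labels. The deposited values are FPKM per library, per the file headers. How they were aligned, quantified and scaled is not given in the sources used here. Builds in the submitters' processing notes are of mouse (GRCm38, mm10) although the table is of rabbit, so coordinates are left out. A test over all 3 groups in the authors' deposited table, given as p-value and q-value, marked 24 of 24 members and was not used further.

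Members were rows whose gene name equals a symbol. The divisor of a library was its median ratio to the mean library, taken from 8448 loci with at least 1 FPKM in all 9. Loci at 1 or more in at least 3 libraries were kept, 10956 of 19511, all 24 members among them. On log2(value + 1), limma 3.58.1 in R 4.3.3 fitted a mean per group over all 9 libraries (eBayes, trend and robust), with two-sided p-values and Benjamini-Hochberg adjustment across loci. All members and further lipid genes from the lists were named, apart from some that are not reported here. They and the 16 lists were chosen with earlier results of these data known. Alternatives were the deposited scale, equal library totals, quantile normalization, 0.1 added, no filter, a filter at 5 FPKM, only the 2 groups compared, a replicate block and each library left out. The pipeline was tested on simulated data. No sequences were used here.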

Additional observations from a re-analysis of the deposited data

How the results depend on the processing

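The deposited scale made every positive change of a member negative, except that of EBP in GA+H/R against H/R. There, in H/R against control, ACLY -1.18, EBP -0.89, FADS1 -1.33, FADS2 -0.51, FDFT1 -0.84, HMGCS1 -1.25, LSS -1.25, MVK -0.63, NSDHL -0.69, PMVK -0.76, SREBF1 -1.05 and SREBF2 -1.19 were the log2 changes of members whose sign turned and that were called on either scale. In GA+H/R against H/R, ACLY -0.28, ACSL3 -0.35, ELOVL5 -0.25, FADS1 -0.56, FADS2 -0.60, FDFT1 -0.49, INSIG2 -0.58 and LSS -0.30 were the log2 changes of members whose sign turned and that were called on either scale. In GA+H/R against control, ACLY -1.46, EBP -0.63, FADS1 -1.90, FADS2 -1.11, FDFT1 -1.33, HMGCS1 -1.47, LSS -1.55, MVK -0.95, NSDHL -0.93, PMVK -0.97, SQLE -1.78 and STARD4 -1.50 were the log2 changes of members whose sign turned and that were called on either scale. In GA+H/R against H/R the sign also turned, with no call on either scale, for HMGCS1 -0.22, MVK -0.32, PMVK -0.20, SQLE -0.34, MSMO1 -0.40, NSDHL -0.23, HSD17B7 -0.19, INSIG1 -0.37 and STARD4 -0.17. At equal library totals SREBF2 in H/R against control turned to -0.028. Under the other alternatives run, a sign turned only where neither value was called. On the deposited scale the counts that moved by over 1.5 times were 460 loci higher, 9462 loci lower, 0 fatty acid members higher, 7 fatty acid members lower, 0 sterol members higher and 17 sterol members lower in H/R against control, 186 loci higher, 7069 loci lower, 0 fatty acid members higher, 7 fatty acid members lower, 0 sterol members higher and 7 sterol members lower in GA+H/R against H/R, 451 loci higher, 9906 loci lower, 0 fatty acid members higher, 7 fatty acid members lower, 0 sterol members higher and 17 sterol members lower in GA+H/R against control. At equal library totals the counts that moved by over 1.5 times were 2088 loci higher, 1 sterol members higher and 6 sterol members lower in H/R against control, 1342 loci higher and 3 sterol members lower in GA+H/R against H/R, 1 fatty acid members higher, 4 fatty acid members lower and 7 sterol members lower in GA+H/R against control. After quantile normalization the counts that moved by over 1.5 times were 2 sterol members higher in H/R against control, 3 sterol members lower in GA+H/R against H/R, 1 fatty acid members higher in GA+H/R against control. With no filter the counts that moved by over 1.5 times were 3 sterol members higher in H/R against control. With a filter at 5 FPKM the counts that moved by over 1.5 times were 1 fatty acid members lower in H/R against control, 2 sterol members lower in GA+H/R against H/R, 0 fatty acid members lower in GA+H/R against control. That filter left 19 members in the test. ACACA and ACSL3 were no longer tested, and lost their calls under 0 of the 16 alternatives that kept them. With only the 2 groups compared the counts that moved by over 1.5 times were 1 sterol members lower in H/R against control, 3 sterol members higher and 3 sterol members lower in GA+H/R against H/R. With the replicate block the counts that moved by over 1.5 times were 2 sterol members lower in GA+H/R against H/R. With 1 library left out, sterol members numbered 3 to 5 higher and 1 to 6 lower in H/R against control, 1 to 6 higher and 1 to 3 lower in GA+H/R against H/R, 5 to 7 higher and 3 to 7 lower in GA+H/R against control, and fatty acid members 1 higher and 3 lower in H/R against control, 1 to 2 higher and 0 lower in GA+H/R against H/R, 2 higher and 2 lower in GA+H/R against control. Leaving out control 1 gave the highest counts of sterol members lower (6, 3 and 7 in the 3 comparisons) and, with gallic acid, higher (6). In H/R against control the sterol members called higher were 3 without any 1 of the H/R libraries and those called lower were 1 without H/R 1, H/R 2, control 2 or control 3. Sterol members called with gallic acid were 2 higher without GA+H/R 1 and 2 lower without GA+H/R 2 or control 3. Labels share replicate numbers, but the correlation of deviations between same-numbered libraries was -0.0177 to 0.0261 over 9 pairs, with 5 of 9 libraries closest to their own number. No pairing by number was seen. With 3 libraries a group, this check cannot settle whether the numbers mark a shared animal or batch. A scale corrected for transcript length was planned and not run, since lengths were not in the sources used here. Depth is unknown, and the spread between 3 libraries limits what can be called.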
